A study of Homo sapiens with 6 samples.

Results

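The genes described here are 35 named protein-coding genes of the human genome whose transcription units each cover more than 300 kb, and they were followed in DLD-1 cells that did or did not lose the nuclear pore protein TPR. The 35 names were taken as a fixed list, which was chosen with earlier results of these data known. Of them 34 passed the expression filter that was part of the choice (over 1 CPM, defined with the levels, in at least 3 libraries). These 34 were tested, out of 16974 genes tested and 58051 genes in the count table. AUTS2 was the 1 member that did not pass. Among all tested protein-coding genes 410 spanned more than 300 kb, so the members are a named subset and 376 genes of like length were not on the list. DLD-1 is a colorectal adenocarcinoma line, and in the cells used here both TPR alleles carry an auxin-inducible degron with NeonGreen, while the plant F-box protein TIR1 is made from the RCC1 locus. All 6 libraries, 3 labelled LMB and 3 labelled LMB+auxin, came from cells given 200 nM Leptomycin B, an inhibitor of the export receptor XPO1, for 3 h. The LMB+auxin cells also received 1 mM auxin for 2 h, which degrades the tagged TPR. The sample titles of both groups read 2 h, while the study's methods give 3 h of Leptomycin B. The comparison therefore asks what auxin, which degrades TPR, did to RNA levels in cells also given the XPO1 inhibitor. Neither cells without Leptomycin B nor cells with auxin alone were analysed here. Cells without the degron given auxin were not analysed either, so effects of auxin itself cannot be told apart from those of TPR loss.

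A gene of this length consists almost wholly of introns, and its messenger RNA can be as short as that of a compact gene. RNA polymerase needs hours to cross such a unit, so the transcript of a long gene depends on sustained elongation, on suppression of early intronic polyadenylation and on topoisomerases that relieve the torsion ahead of the polymerase. Several of the longest human genes coincide with common fragile sites, where the genome breaks under replication stress. TPR forms the filaments of the nuclear basket on the inner face of the pore and is known for roles in messenger RNA export, and Leptomycin B blocks the export of proteins and RNAs that leave the nucleus through XPO1.

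In GENCODE 44 (GRCh38) the members spanned 317 kb for EXT1 to 1504 kb for FHIT, with a median of 685 kb. They lie on 13 chromosomes, 6 of them on chromosome 3, with 17 on the plus and 18 on the minus strand. Their canonical transcripts held from 6 exons in IMMP2L to 62 exons in VPS13B, with a median of 18. The longest intron measured 50.1 kb in UVRAG and 779 kb in WWOX, with a median of 161 kb, and it exceeded 100 kb in 30 of 35 members. Exons made up 0.441% to 5.21% of the span, with a median of 1.86%, whereas the median over all tested genes was 19.3%. The exons of 14 members overlapped no exon of another annotated gene on either strand. For MAD1L1 43.2% and for ZBTB20 44.9% of exonic bases lay inside exons of other genes. The strand setting of the counting is not given in the sources used here, so the counts of these 2 genes may include reads of their neighbours.

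The members differed widely in abundance. Levels between genes were compared as CPM (a gene's share of the counts in tested genes, scaled between libraries by the trimmed mean of M values) per kilobase of exonic sequence. Exonic sequence means the merged exons of all annotated transcripts of a gene, so the order depends on the annotation. MSI2 had 22248 such bases beside 6379 in its canonical transcript, and PARD3 7339 beside 5971, so canonical lengths would give another order. On that scale PTPRK, a receptor tyrosine phosphatase of cell-cell contacts, stood highest at 36.6 CPM per kb, followed by the polarity scaffold PARD3 at 9.86, the transfer RNA methylthiotransferase CDKAL1 at 9.10 and the exocyst subunit EXOC4 at 8.74. The low end held AUTS2 at 0.00565 CPM per kb, the repressor ZBTB20 at 0.026, NBEA at 0.22 and FHIT at 0.265. AUTS2, a partner of Polycomb complexes known mainly from neurons, was counted 3, 6 and 3 times in the LMB libraries and 4, 5 and 5 times in the LMB+auxin libraries, too few to compare. Including AUTS2, 8 members averaged under 10 CPM. Over the 34 tested members the standard error of the fold change fell with the mean count (Spearman -0.73, a description over genes that share the same libraries).

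No member changed by the study's bar. A call needed an adjusted p under 0.05 (edgeR's quasi-likelihood test, Benjamini-Hochberg over all tested genes) and a change of 1.3-fold or more, up or down. Without a term for the replicate number 0 of 34 members were called, against 1 of 16974 tested genes (0.00589%), and 1 member, THADA, had an unadjusted p under 0.05, in the direction of higher values, against 4.37% of all tested genes in either direction and 1.02% for higher values. DESeq2 and limma-voom without a block also called 0 members, each with 1 member at an unadjusted p under 0.05. With the replicate number as a block 0 of 34 members were called, against 201 tested genes (1.18%), while 1 member passed the adjusted p alone, against 740 tested genes (4.36%, or 1.11% for higher values). In that blocked fit 4 members, THADA, DIAPH3, CDKAL1 and UVRAG, had an unadjusted p under 0.05, and all 4 were higher in LMB+auxin. The background for that count is 19.9% of all tested genes in either direction and 8.1% for higher values.

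The intervals limited how large an unseen change in gene counts after 2 h of auxin could be. They do not cover transcription itself, which was not measured here. In the fit without a block, the 95% interval of the change lay wholly inside 1.3-fold in either direction for 26 of 34 members, against 57.1% of all tested genes. In the blocked fit this held for 32 of 34 members, against 75.6% of all tested genes, and the 2 exceptions were ZBTB20 and FHIT. The log2 fold changes (LMB+auxin over LMB) of the members ran from -0.15 for ZBTB20 to 0.16 for THADA, with a median of 0.045, beside a median of -0.0027 over all tested genes. There were 23 members above and 11 below 0, while 49.2% of all tested genes lay above 0. Of the 376 other coding genes over 300 kb 68.4% lay above 0, so the members did not stand apart from genes of like length. The median of the members was 0.034 in replicate pair 1, 0.084 in pair 2 and 0.015 in pair 3.

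**Figure D1:**
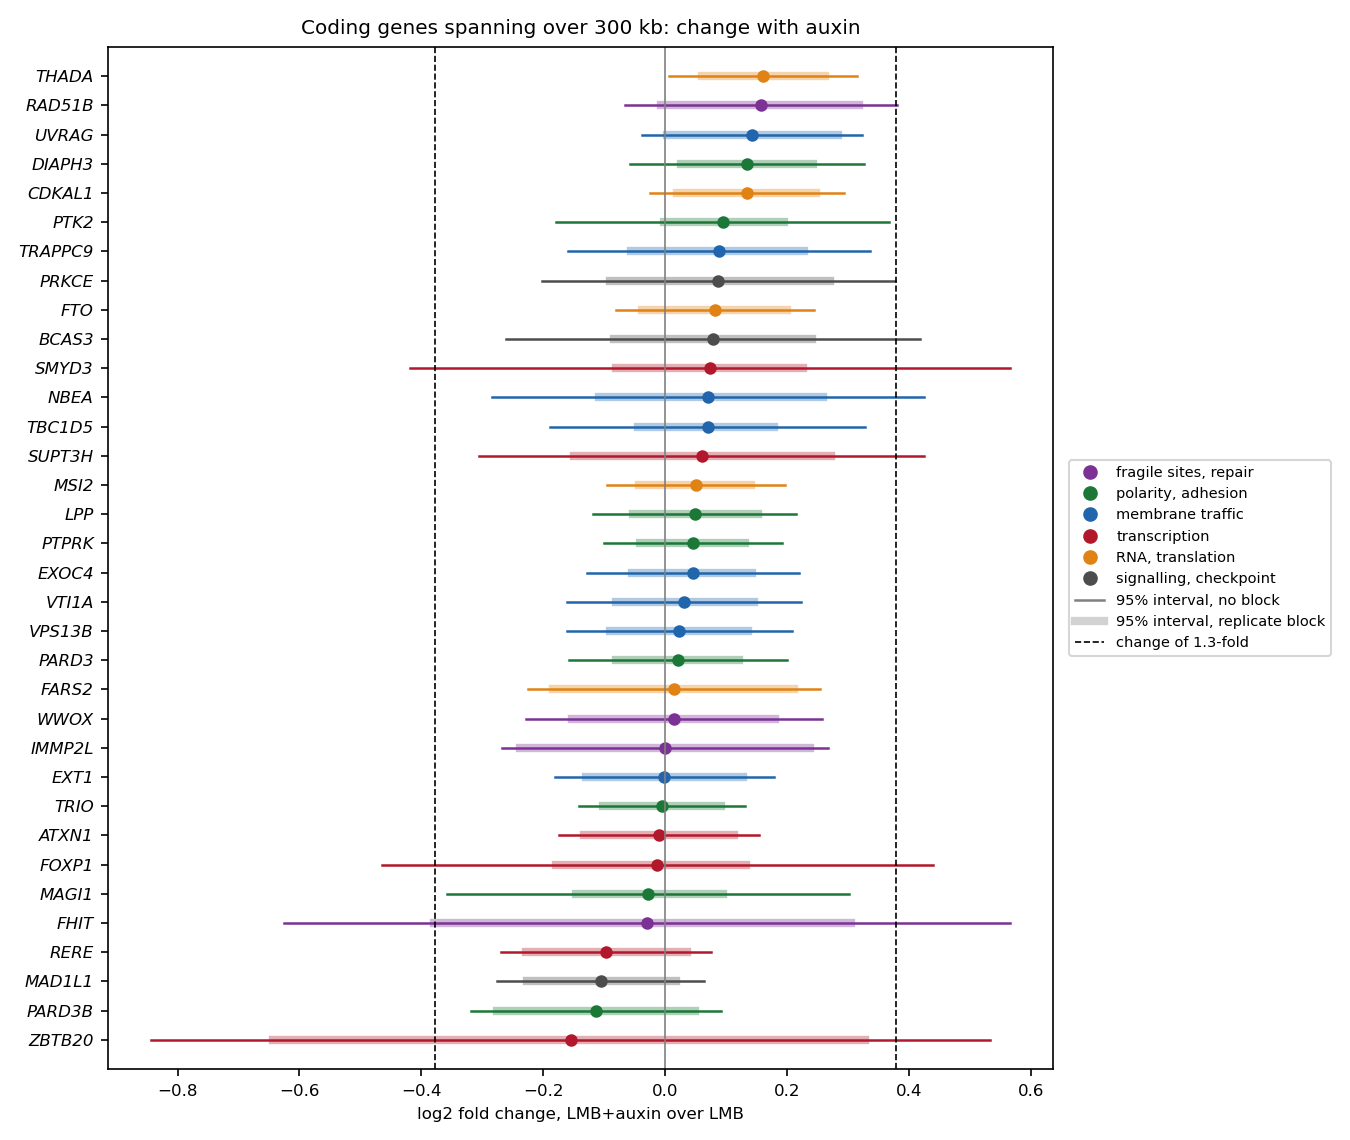
Log2 fold change (LMB+auxin over LMB, horizontal axis) of the 34 tested genes, with the 95% intervals of edgeR's fits with and without the replicate block and dashed lines at a 1.3-fold change. The estimates run from -0.15 for ZBTB20 to 0.16 for THADA, and with the block only the intervals of ZBTB20 and FHIT cross a dashed line.

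Counted by replicate pair, 11 members were higher in LMB+auxin in 3 of 3 pairs, against 21.4% of all tested genes, and 3 members, PARD3B, RERE and MAD1L1, were higher in 0 of 3 pairs, against 20.5%. For the 376 other coding genes over 300 kb these shares were 34.3% and 9.57%. The groups did not overlap for THADA, CDKAL1 and UVRAG, which were higher in every LMB+auxin library than in any LMB library, against 4.9% of all tested genes. They also did not overlap for PARD3B and RERE, which were lower, against 6.63% of all tested genes. Of the 376 other coding genes over 300 kb, 33 had non-overlapping groups with higher and 9 with lower LMB+auxin values. These counts are given without a test.

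The genes of RNA modification, RNA binding and translation were THADA, CDKAL1, FTO, FARS2 and MSI2, and their median log2 fold change was 0.082, with 5 of 5 above 0. THADA (chr2:43230851-43596038, minus strand, 38 exons, longest intron 54.9 kb) encodes a protein that takes part in methylation of transfer RNA. It stood at 72.4, 68.5 and 77.9 CPM in the LMB libraries and at 83.4, 79.8 and 81.4 CPM in the LMB+auxin libraries. Every LMB+auxin value lay above every LMB value, and the replicate 3 pair lay closest together. The change was 0.16 ± 0.07 (SE) on the log2 scale, and the edgeR adjusted p was 0.954 unblocked. Blocking by replicate number brought it to 0.0467, the only value under 0.05 among the members. The change stayed short of 1.3-fold, so THADA was not called, and its adjusted p rose above 0.05 in blocked fits with DESeq2 (0.250), with library size alone as the scaling (0.0630) and when replicate pair 1, 2 or 3 was left out (0.0846, 0.329 and 0.244).

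CDKAL1 (chr6:20534457-21232404, plus strand, 16 exons), which completes a modified base next to the anticodon of a lysine transfer RNA, stood at 39.1, 38.8 and 41.9 CPM in LMB and at 45.8, 42.0 and 43.7 CPM in LMB+auxin. The highest LMB library lay only just under the lowest LMB+auxin library. Its log2 fold change was 0.13 ± 0.07 (SE), and the edgeR adjusted p was 0.954 unblocked and 0.169 blocked. FTO, a demethylase of N6-methyladenosine, averaged 34.5 CPM in LMB and 36.5 in LMB+auxin. The RNA-binding protein gene MSI2 averaged 155 and 161 CPM, and FARS2, the mitochondrial phenylalanyl-tRNA synthetase, 6.65 and 6.71 CPM. None of these 3 passed the test in either fit.

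For genes of membrane traffic, autophagy and glycan synthesis the median change was 0.057 on the log2 scale, with 7 of 8 above 0 and 0 of 8 called in either fit. UVRAG (chr11:75815210-76144232, plus strand, 15 exons), a subunit of the lipid kinase complex that acts in autophagy and endosome maturation, stood at 16.9, 17.6 and 16.9 CPM in LMB and at 18.3, 19.5 and 18.9 CPM in LMB+auxin. The groups did not overlap, and within each group replicate 2 was the highest. Its log2 fold change of 0.14 ± 0.08 (SE) came with an edgeR adjusted p of 0.954 unblocked and 0.236 blocked. The rest of the group ran from -0.0013 for EXT1, a polymerase of heparan sulfate, to 0.088 for TRAPPC9, a subunit of a complex that tethers transport vesicles. Between these lay EXOC4, the Rab GTPase-activating protein gene TBC1D5, the lipid transfer protein gene VPS13B, the SNARE gene VTI1A and NBEA, a protein of vesicle traffic in neurons. EXT1 averaged 24.3 CPM in both groups.

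Genes of polarity, adhesion and the cytoskeleton centred on a log2 fold change of 0.033 (median), with 5 of 8 above 0. DIAPH3 (chr13:59665583-60163928, minus strand, 28 exons), a formin that nucleates actin filaments, stood at 50.1, 47.5 and 56.4 CPM in LMB and at 59.8, 52.3 and 56.9 CPM in LMB+auxin. The groups overlapped, and the difference was 0.26 on the log2 scale in pair 1 but 0.01 in pair 3. PARD3B (chr2:204545475-205620162, plus strand, 23 exons), a relative of the polarity scaffold PARD3, stood at 12, 12.1 and 11.5 CPM in LMB and at 11.3, 10.5 and 11 CPM in LMB+auxin. All LMB+auxin values lay below all LMB values. The change was -0.11 ± 0.09 (SE), and the edgeR adjusted p was 0.954 unblocked and 0.451 blocked. PTPRK, the most abundant member, averaged 322 ± 10.8 CPM with LMB alone and 332 ± 15.7 CPM after auxin (SD, n = 3), a log2 fold change of 0.046 with a 95% interval of -0.10 to 0.19. LPP, a LIM protein of focal adhesions, averaged 68.8 and 71.1 CPM, and PARD3 71.9 and 72.9 CPM. TRIO, a guanine nucleotide exchange factor, lay between 89 and 94.1 CPM in all 6 libraries. PTK2 and MAGI1, the remaining members of the group, are described with the replicate pattern.

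**Figure D2:**
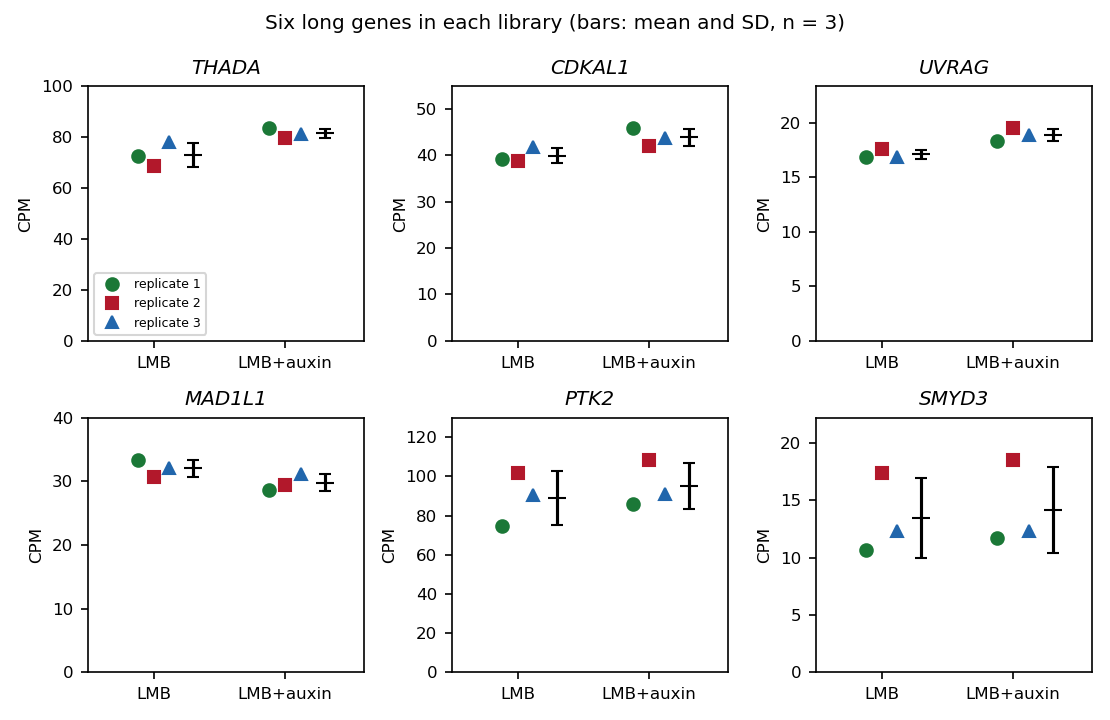
CPM in each library for 6 of the genes, with LMB and LMB+auxin side by side, a symbol for each replicate number, and bars for the mean and SD (n = 3). THADA, CDKAL1 and UVRAG have all 3 LMB+auxin libraries above the LMB libraries, while replicate 2 is the highest library of both groups for PTK2 and SMYD3.

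The median log2 fold change was 0.0067 for genome maintenance and fragile-site genes, with 2 of 4 above 0. RAD51B (chr14:67819779-68730218, plus strand, 11 exons, longest intron 405 kb), a gene of homologous recombination, stood at 10.7, 11.4 and 10.4 CPM in LMB and at 11.8, 13.1 and 11.4 CPM in LMB+auxin. It was higher in 3 of 3 pairs, and the lowest LMB+auxin library lay level with the highest LMB library. The log2 fold change was 0.16 ± 0.10 (SE), and edgeR gave an adjusted p of 0.954 unblocked and 0.271 blocked. FHIT (chr3:59747277-61251459, minus strand, 10 exons, longest intron 523 kb), which hydrolyses diadenosine triphosphate and spans the fragile site FRA3B, stood at 2.18, 2.15 and 1.67 CPM in LMB and at 1.35, 2.81 and 1.70 CPM in LMB+auxin. The LMB+auxin libraries held both its lowest and its highest value. With 40 to 82 counts per library its 95% interval ran from -0.62 to 0.57 on the log2 scale. WWOX, which spans FRA16D, averaged 10.9 CPM in LMB and 11 in LMB+auxin, and IMMP2L, a subunit of a mitochondrial inner membrane peptidase, averaged 4.21 CPM in both.

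For transcription and chromatin genes the median log2 fold change was -0.012, with 2 of 6 tested genes above 0. It was the only functional group with a median below 0, but that median was close to 0. It rested on FOXP1 (-0.013) and ATXN1 (-0.011), which both changed sign when single libraries were left out. ZBTB20 (chr3:114314500-115147292, minus strand, 12 exons) had the lowest estimate of all members and the widest interval. It was counted 18, 39 and 38 times in LMB and 35, 20 and 25 times in LMB+auxin, so the pairs went in opposite directions and the interval ran from -0.84 to 0.53. RERE (chr1:8352397-8848921, minus strand, 23 exons), a nuclear corepressor of the atrophin family, stood at 24.0, 22.8 and 22.8 CPM in LMB and at 21.1, 22.2 and 21.7 CPM in LMB+auxin. Its groups did not overlap, but the change was small, at -0.097 ± 0.08 (SE), and edgeR gave an adjusted p of 0.954 unblocked and 0.421 blocked. The forkhead repressor FOXP1 averaged 13.8 and 13.7 CPM, the repressor gene ATXN1 28.6 and 28.4, and SUPT3H, a subunit of the SAGA coactivator, 5.70 and 5.94.

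The remaining 3 genes, of signalling and the mitotic checkpoint, were MAD1L1, PRKCE and BCAS3. MAD1L1 (chr7:1815793-2233243, minus strand, 19 exons) encodes the spindle checkpoint protein MAD1, which is known to bind TPR at the nuclear pore. It stood at 33.3, 30.6 and 32.1 CPM in LMB and at 28.6, 29.5 and 31.2 CPM in LMB+auxin. It was lower in 3 of 3 pairs, yet the groups overlapped. The change was -0.11 ± 0.08 (SE), with edgeR adjusted p of 0.954 unblocked and 0.33 blocked, and 43.2% of its exonic bases are shared with exons of other genes. PRKCE, a calcium-independent protein kinase C, averaged 8.40 and 8.93 CPM, and BCAS3, an autophagy-associated protein, 11.1 and 11.7 CPM. Neither passed the test in either fit.

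**Figure D3:**
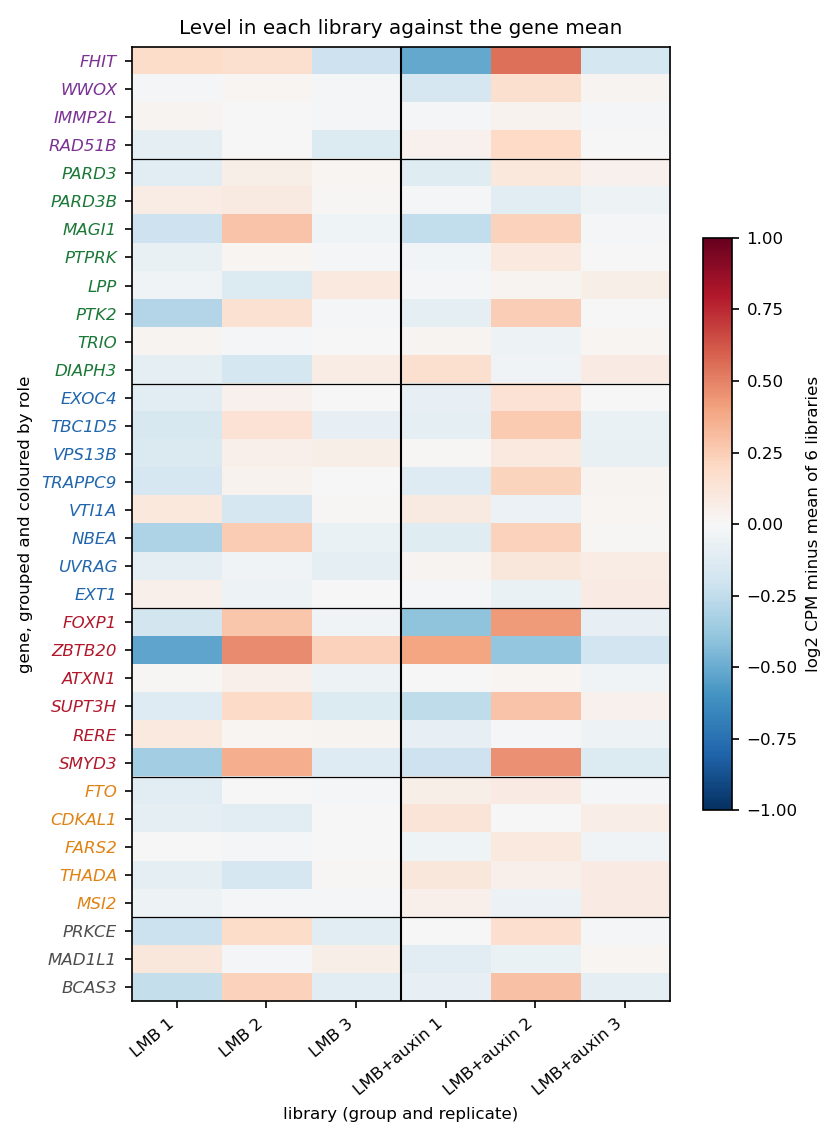
Log2 CPM of the 34 tested genes in each of the 6 libraries, coloured by the deviation from the gene's own mean over the libraries (red higher, blue lower), with genes grouped by role. The replicate 2 columns are high for SMYD3, MAGI1, FOXP1 and NBEA in both groups.

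Many members differed more between replicate numbers than between groups, as did many of the other tested genes. In 18 of 34 members replicate 2 was the highest library in both groups, against 26.9% of all tested genes and 37.0% of the 376 other coding genes over 300 kb. In 6 of 34 it was the lowest in both groups, against 28.7% of all tested genes and 73 of the 376 other long genes. The offset of replicate 2 from the other libraries of its group exceeded the fold change in both groups for 23 of 34 members. This held for 54.8% of all tested genes and for 225 of the 376 other coding genes over 300 kb. The genes that follow were chosen as examples after their values were seen. The histone and protein lysine methyltransferase gene SMYD3 stood at 10.6, 17.4 and 12.4 CPM in LMB and at 11.7, 18.5 and 12.3 CPM in LMB+auxin. PTK2, the focal adhesion kinase, stood at 74.7, 102 and 90.6 CPM and at 85.9, 108 and 90.9 CPM, and the junction scaffold MAGI1 at 27.2, 38.2 and 30.3 CPM and at 26.3, 36.7 and 30.9 CPM. In all 3 replicate 2 was the highest library of each group. What the replicate numbers share beyond the number is not stated in the labels. Over the 34 members the offset of replicate 2 in LMB and in LMB+auxin had a Pearson correlation of 0.50 and a Spearman correlation of 0.72, a description over genes that share the same libraries.

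The median of the members lay close to that of other long genes, and over all tested protein-coding genes the median rose from the shortest spans to those over 100 kb. Among tested protein-coding genes the median log2 fold change was -0.073 for 2343 genes spanning under 10 kb, -0.020 for 3576 genes of 10 to 30 kb, 0.032 for 4294 genes of 30 to 100 kb, 0.052 for 2040 genes of 100 to 300 kb and 0.050 for 410 genes over 300 kb. The 376 long genes that are not members had a median of 0.051, beside 0.045 for the members. The median of the members rested on single libraries: it was -0.018 without LMB+auxin replicate 2 and 0.0082 without LMB replicate 1, where that of all genes over 300 kb was 0.012 and 0.015. Past 100 kb the medians no longer rose with span. The medians of the shortest group were -0.15, -0.026 and -0.040 in replicate pairs 1, 2 and 3, and those of the 376 other long genes were 0.071, 0.047 and 0.022, so the order of the end groups held in each pair while its size was largest in pair 1. The difference between the medians of genes over 300 kb and under 10 kb was 0.122 on the log2 scale, and it ranged from 0.066 to 0.149 over the other settings, with the lowest value when replicate pair 1 was left out. These medians are descriptions without a test, and genes are not replicates.

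**Figure D4:**
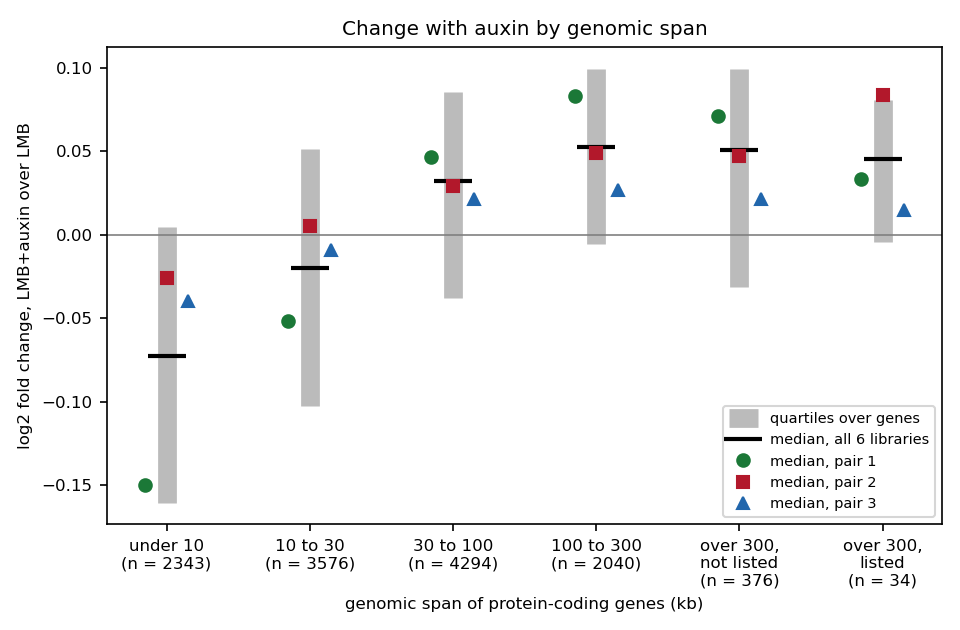
Median log2 fold change (LMB+auxin over LMB) of tested protein-coding genes by genomic span, as black lines over all 6 libraries, symbols for the replicate pairs and grey bars for the quartiles over genes. The median runs from -0.073 under 10 kb to 0.051 for the 376 unlisted genes over 300 kb, and the 34 listed genes stand at 0.045.

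Transcript GC content moved with span and with the fold change. The median GC content of canonical transcripts was 56.6% for genes under 10 kb and 45.9% for the members. When protein-coding genes were put into 3 equal groups by GC content, a grouping added after the data were seen, the median log2 fold change of genes over 300 kb was 0.057 at low, 0.053 at middle and -0.043 at high GC content. For genes under 10 kb the corresponding medians were -0.0016, -0.0081 and -0.11. The medians of the members were 0.048 for 11 genes at low, 0.038 for 20 at middle and -0.097 for 3 at high GC content. Those 3 were RERE at -0.097, MAD1L1 at -0.11 and TRAPPC9, which went the other way at 0.088. The part of GC content in the fold changes was not tested. Within the members the correlation of span with log2 fold change was weak (Pearson -0.19 and Spearman -0.18 over 34 genes that share the same libraries).

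Among the other coding genes over 300 kb, 0 of 376 were called without the block, against 0.00589% of all tested genes, and 4 with it, against 1.18%, so the blocked count lies near the background. These 4 genes are named here after their values were seen. KIRREL3, an adhesion protein gene of the immunoglobulin superfamily, was higher by 0.72 on the log2 scale in the blocked fit, NAALADL2 by 0.63 and the ion channel gene TRPM3 by 0.40, while the transcription factor gene MECOM changed by -0.38. All 4 stood under 10 CPM in every library. Each of these calls was lost when some replicate pair was left out of the blocked fit: KIRREL3 without pair 2, NAALADL2 without pair 2 or 3, and TRPM3 and MECOM without pair 1 or 3.

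A list of 35 factors that act in transcription through long genes was read from the same fits. It holds topoisomerases, elongation factors and kinases, the U1 small nuclear ribonucleoprotein that suppresses early polyadenylation, and cleavage and termination factors. All 35 were tested, 20 were higher and 15 lower, with a median log2 fold change of 0.014. None was called in either fit, and an unadjusted p under 0.05 was reached by 1 factor unblocked, against 4.37% of all tested genes, and by 7 blocked, against 19.9%, so both counts lie near the background. PCF11, a cleavage and termination factor, was the lowest, at 131, 124 and 131 CPM in LMB and 119, 95.4 and 100.2 CPM in LMB+auxin. All LMB+auxin values lay below all LMB values, and the log2 fold change was -0.29 (edgeR adjusted p = 0.954). With the block PCF11 was the 1 factor to pass the adjusted p, at -0.30 and 5.8e-06, short of the 1.3-fold bar. For PCF11 18.9% of exonic bases lay inside exons of other genes, so its counts may include reads of neighbours. Without replicate pair 3 its blocked adjusted p was 0.117, and without pair 1 it passed both criteria at -0.38. The next lowest was the elongation factor ELL at -0.16, and the highest were the topoisomerases TOP2A and TOP1, each at 0.10, and none of these passed the adjusted p in either fit.

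TPR messenger RNA was not lowered by auxin, which acts on the protein, and it checks no label here. Its level was 167 ± 12.1 CPM with LMB alone and 188 ± 3.89 CPM after auxin (SD, n = 3), and the edgeR adjusted p was 0.954 unblocked and 0.0136 blocked. The blocked value was lost with DESeq2 (0.0988) and without pair 2 (0.247) or pair 3 (0.127). XPO1, the target of Leptomycin B, averaged 947 ± 60.0 and 957 ± 110 CPM. Total counts were 28261903 to 35992425 per library. Epithelial markers summed to 7527 to 7576 CPM in LMB and 7342 to 7945 CPM in LMB+auxin, with 7 of 8 tested and CDX1 near 0, and 7 markers of leukocytes, fibroblasts, endothelium and liver summed to at most 2.06 CPM in any library. In total RNA fewer cells of a kind, less RNA per cell and a change in decay cannot be told apart from a change in transcription, and reads from introns were not counted separately.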

How the data were processed

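The deposited table holds raw gene counts, which the authors made from rRNA-depleted, stranded, paired-end total RNA libraries by alignment to the human genome and counting with featureCounts. The submitters' processing notes name CASAVA 1.8.2, STAR 2.6.1c and featureCounts 1.5.2. Neither the strand setting nor the handling of multiply mapped reads is given in the sources used here. In the study's account each group had 3 independent biological replicates.

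The members and the gene lists were chosen with earlier results of these data known. Genes with more than 1 CPM in at least 3 libraries were kept, library sizes were summed over these genes, and CPM were scaled by TMM. edgeR 4.0.16 (R 4.3.3) was used with glmQLFit (robust) and glmQLFTest, and adjusted p are Benjamini-Hochberg over all 16974 genes. SE and 95% intervals derive from the quasi-likelihood F statistic. Alternatives were the replicate number as a block, DESeq2 1.42.0, limma-voom (limma 3.58.1), other scalings, no filter, and fits without single libraries or replicate pairs. Same-numbered libraries deviated together from their group means (correlations over genes of 0.53, 0.69 and 0.27), so the numbers were treated as pairing the samples. Replicates 1 and 3 also correlated across numbers, at 0.15 for LMB 1 with LMB+auxin 3 and 0.14 for LMB 3 with LMB+auxin 1. The pairing of replicate 3 is thus the least distinct. No replicates agreed within sampling noise (chi-square per gene 5.35 to 39.9). Depth ran from 28261903 to 35992425 counts. Gene models, spans and GC content come from GENCODE 44. Symbols were found for 56948 of 58051 identifiers.

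Values in every library are given for members past the adjusted p in either fit and for the 5 highest and 5 lowest fold changes. SMYD3, PTK2 and MAGI1 are also given by library, as examples chosen after their values were seen, and AUTS2 by its counts. Other members are given by their means or range.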

Additional observations from a re-analysis of the deposited data

How the results depend on the processing

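No member was called under any of the settings tried. Past the adjusted p stood 0 members without a block, 1 with the replicate block, and 0 with DESeq2 and the block. The number at an unadjusted p under 0.05 was 1, and it became 4 with the replicate block, 0 with library size alone, 3 with library size alone and the block, 0 with no filter on low counts, 0 to 1 when libraries were left out singly and 0 to 2 when replicate pairs were left out with the block. The median log2 fold change of the members was 0.045 and lay between 0.032 and 0.052 under other tests and scalings. It ranged from -0.018 to 0.089 when single libraries were left out and from 0.019 to 0.066 when replicate pairs were left out with the block, and changed sign only in the fit that dropped LMB+auxin 2 (-0.018). Dropping LMB 1 gave 0.0082, dropping LMB 2 gave 0.084, and dropping LMB+auxin 1 gave 0.089. The cause was not tested.

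The replicate block changed no call among the members. Of 572 recomputed log2 fold changes of single genes 65 changed sign, 54 of them with libraries left out, and 13 genes kept their sign throughout. None of these values was called. With single libraries left out the genes that changed sign ranged from -0.38 to 0.17 for FHIT, -0.018 to 0.014 for IMMP2L, -0.028 to 0.083 for PARD3, -0.017 to 0.21 for PTK2, -0.021 to 0.020 for TRIO, -0.038 to 0.073 for VPS13B, -0.050 to 0.24 for NBEA, -0.037 to 0.031 for EXT1, -0.16 to 0.31 for SMYD3, -0.058 to 0.23 for BCAS3. The range was -0.16 to 0.13 for MAGI1, -0.033 to 0.092 for VTI1A, -0.27 to 0.16 for FOXP1, -0.039 to 0.021 for ATXN1, -0.063 to 0.095 for WWOX, -0.018 to 0.095 for EXOC4, -0.055 to 0.17 for TBC1D5, -0.0074 to 0.17 for TRAPPC9, -0.077 to 0.19 for SUPT3H and -0.030 to 0.041 for FARS2. Sign changes with pair 1 left out and the block kept were 0.23 for FHIT, 0.022 for IMMP2L, -0.043 for VPS13B, 0.033 for EXT1 and 0.055 for FOXP1. Sign changes with pair 2 left out and the block kept were -0.045 for WWOX, -0.0020 for LPP, 0.012 for TRIO, 0.0093 for EXT1, 0.0057 for ATXN1 and -0.031 for FARS2. Sign changes with pair 3 left out and the block kept were -0.00030 for WWOX and 0.0026 for IMMP2L. The other sign changes were all close to 0. With DESeq2, DESeq2 with the block and DESeq2 size factors IMMP2L stood at 0.0066, 0.0063 and 0.0065, TRIO at 0.0019, 0.0016 and 0.0018, and EXT1 at 0.0060, 0.0056 and 0.0058. IMMP2L stood at 9.5e-05 with limma-voom and WWOX at -3.5e-05 with library size alone.

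For ZBTB20, with 18 to 39 counts per library, a change under 1.3-fold could not be told from the spread between replicates.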
